A study of Mus musculus with 6 samples.

Results

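The genes described here mark macrophages, leukocytes in general, and neutrophils, and they were chosen by symbol: 34 genes were listed, 17 of macrophages, 10 of leukocytes in general and 7 of neutrophils. Of these, 32 had a row among the 20033 genes of the deposited table, and Cd163 and Timd4 were not analysed here. Expression was measured by poly(A) RNA sequencing in the mesonephros, the transient embryonic kidney that holds the tubules and the Wolffian duct, of 6 male mouse embryos at E12.5. The 3 knockout libraries came from embryos with a global Wnt9b knockout (Wnt9b-/-), and the 3 control libraries from embryos that the genotype label calls heterozygous and the design text calls Wnt9b+/+, so they are called controls. The comparison belongs to a study of Wnt9b, a Wnt ligand that the duct epithelium secretes, in Wolffian duct development and androgen action. The titles number a mouse for each library, and litters and batches are not given. Values are given as TPM, a level corrected for gene length and library size.

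Tissue macrophages of the early embryo derive mostly from the yolk sac and the fetal liver, settle in nearly every organ, live on the growth factor receptor Csf1r and its ligands Csf1 and Il34, and clear dying cells with complement C1q and the receptor Mertk. Neutrophils arise in the hematopoietic organs through stages marked by their granules. The primary granule enzyme Mpo is transcribed at the promyelocyte stage, the secondary granule genes Ltf, Camp and Ngp later, and S100a8 and S100a9, which encode the calprotectin subunits, are abundant in mature cells. In RNA of a whole organ, fewer cells of a type and less RNA per cell cannot be told apart.

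Reads recovered from the deposited values, at least so many per library, ran from 28687415 to 32064834 in the knockout libraries and from 29061367 to 33574278 in the control libraries. The duct and tubule genes Pax2, Pax8 and Emx2 were present in every library, Pax2 at 14.5 to 25.0 TPM in knockouts and 20.6 to 25.2 TPM in controls. Wnt9b itself was at 23.4, 19.2 and 19.0 TPM in knockouts and at 24.9, 26.4 and 34.04 TPM in controls. Its groups did not overlap, and its log2 difference, always knockout minus control on log2(TPM + 1), was -0.44 (limma adjusted p = 0.266). The authors' deposited table lists Wnt9b as lower (log2 fold change -0.45, adjusted p = 0.0263). A value over the whole gene counts transcripts that a deletion of some exons leaves, so it is a weak check of the labels. Of 17577 genes that reached 1 TPM in at least 3 libraries, 78 passed limma's test at an adjusted p of 0.05 (0.444%), 23 higher (0.131%) and 55 lower (0.313%) in knockouts, and the median log2 difference of all tested genes was -0.0075. The p-values measure the spread between the embryos.

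The neutrophil genes carried the largest differences between single libraries, so the DNA just before their starts is shown first, with Mpo beside the 5 genes of later stages. Each line gives the 250 bases before the RefSeq gene start, 5′ to 3′ on the gene's strand, from RefSeq on GRCm38.p6, whereas the submitters' processing notes name GRCm39 for the deposited values. Capitals mark matches on either strand to GAGGAA, a core of the kind bound by the myeloid factor PU.1 (the product of Spi1), and to TTGCNNAA, a pattern of the kind bound by C/EBP factors.
S100a8: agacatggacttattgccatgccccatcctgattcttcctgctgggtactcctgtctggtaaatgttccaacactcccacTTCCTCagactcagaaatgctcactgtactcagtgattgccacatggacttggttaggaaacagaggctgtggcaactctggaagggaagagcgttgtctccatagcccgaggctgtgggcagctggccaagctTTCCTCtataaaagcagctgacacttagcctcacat
S100a9: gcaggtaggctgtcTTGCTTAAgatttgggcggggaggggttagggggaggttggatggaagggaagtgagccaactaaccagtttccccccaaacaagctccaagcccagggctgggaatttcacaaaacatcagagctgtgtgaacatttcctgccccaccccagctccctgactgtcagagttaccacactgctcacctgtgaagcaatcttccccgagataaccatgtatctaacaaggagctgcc
Ngp: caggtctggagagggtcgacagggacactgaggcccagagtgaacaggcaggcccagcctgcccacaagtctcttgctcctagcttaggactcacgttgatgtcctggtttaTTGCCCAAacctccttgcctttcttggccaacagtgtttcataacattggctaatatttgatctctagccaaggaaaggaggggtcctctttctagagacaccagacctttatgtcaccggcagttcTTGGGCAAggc
Camp: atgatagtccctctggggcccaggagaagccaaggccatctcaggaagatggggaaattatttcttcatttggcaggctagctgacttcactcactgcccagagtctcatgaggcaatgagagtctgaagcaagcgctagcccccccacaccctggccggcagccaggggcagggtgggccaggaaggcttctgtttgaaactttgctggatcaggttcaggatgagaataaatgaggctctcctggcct
Ltf: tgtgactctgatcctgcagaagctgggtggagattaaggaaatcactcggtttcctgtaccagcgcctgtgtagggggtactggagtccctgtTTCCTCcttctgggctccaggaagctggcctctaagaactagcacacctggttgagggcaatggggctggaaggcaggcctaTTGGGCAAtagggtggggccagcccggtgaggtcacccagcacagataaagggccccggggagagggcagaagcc
Mpo: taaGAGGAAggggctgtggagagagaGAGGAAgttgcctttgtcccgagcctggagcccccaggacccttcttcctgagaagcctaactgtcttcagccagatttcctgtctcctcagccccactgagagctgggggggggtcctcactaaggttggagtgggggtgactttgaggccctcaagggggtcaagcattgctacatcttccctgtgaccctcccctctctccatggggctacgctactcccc

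S100a8 is shown at chr3:90668821-90669070 (plus strand) and S100a9 at chr3:90695722-90695971 (minus strand), neighbours on chromosome 3. Ngp at chr9:110419558-110419807 (plus strand), Camp at chr9:109849457-109849706 (minus strand) and Ltf at chr9:111019042-111019291 (plus strand) all lie on chromosome 9, and Mpo is shown at chr11:87793534-87793783 (plus strand). GAGGAA was found before S100a8, Ltf and Mpo, and TTGCNNAA before S100a9, Ngp and Ltf. The Camp window held neither. Over 32851 RefSeq promoter windows of the same length, 23.3% held GAGGAA and 9.56% held TTGCNNAA. Among the 27 listed genes with a promoter in that table, 16 held GAGGAA and 5 held TTGCNNAA. The longer GAGGAAGT, which contains GAGGAA, was in 2.44% of all windows and in 4 of the 27 genes. Matches describe letters only, and a window without one says nothing about a factor.

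Among the listed genes, none passed the test in the Wnt9b knockouts. Of 30 tested genes, 0 were called by limma (background 0.444% of all tested genes), 0 by limma-voom on the recovered reads (background 1.53%), and 1, Pf4, is higher in the authors' deposited table (background 3.55%). At an unadjusted p under 0.05 there were 2, Pf4 and Aif1 (background 11.3%), and these were also the 2 genes whose groups did not overlap (background 16.6%), Pf4 with knockouts above (background 8.14%) and Aif1 with knockouts below (background 8.49%). The median log2 difference over the 30 genes was -0.15, with 9 genes positive and 21 negative. By class it was -0.18 over 15 macrophage genes, -0.04 over 9 leukocyte genes and -0.89 over 6 neutrophil genes. Ptprc and Csf3r stayed under 1 TPM in more than 3 libraries and were not tested.

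**Figure D1:**
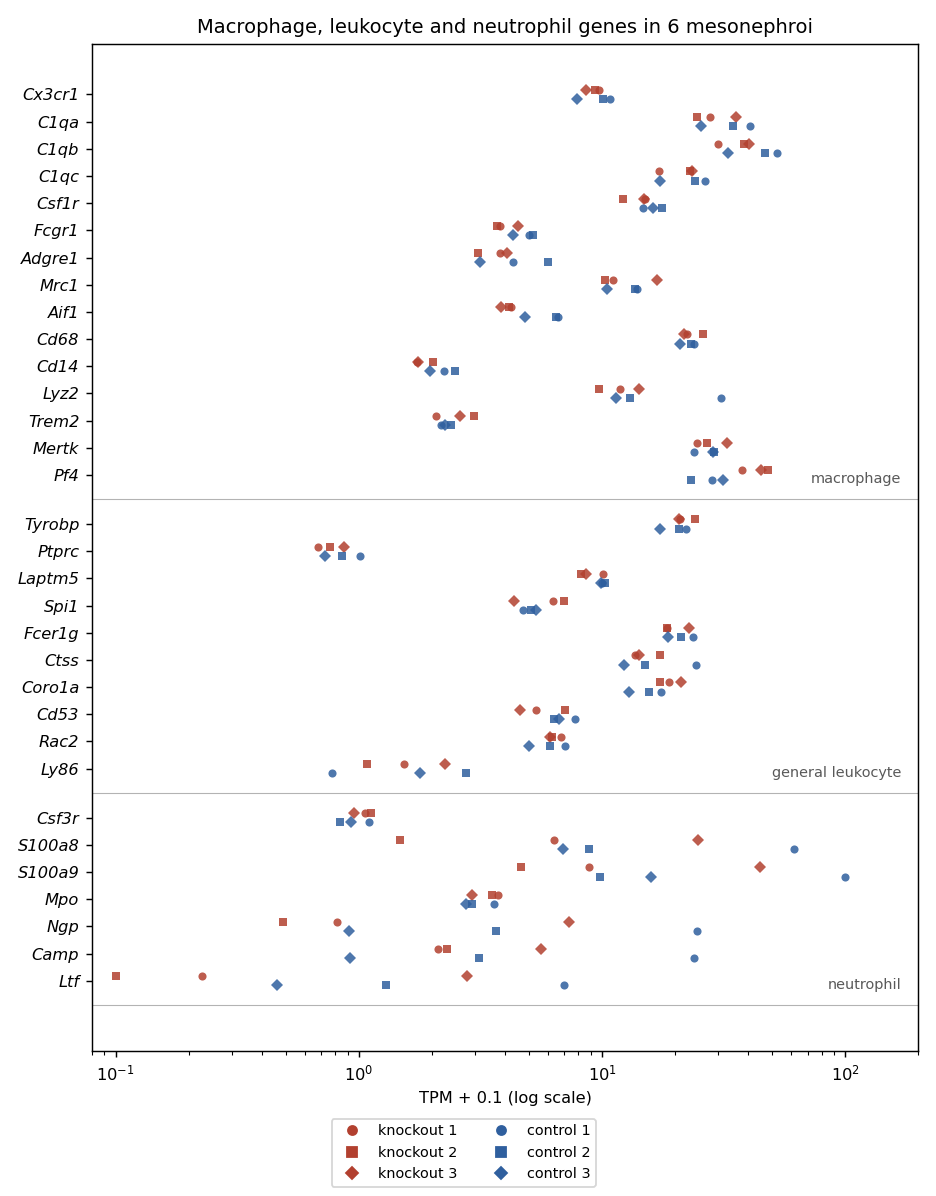
TPM plus 0.1 on a log axis for the 32 listed genes with a row, by class, with 1 symbol per library, knockouts in red above controls in blue. Most macrophage and general leukocyte genes form tight clusters, Lyz2 and Ly86 less so. S100a8, S100a9, Ngp, Camp and Ltf spread more widely, with control 1 the highest library for each of these 5.

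The macrophage class as a whole was at a like summed level in both groups. Its 15 genes summed to 221, 243 and 269 TPM in knockouts and to 285, 257 and 218 TPM in controls, or 244 ± 24.0 against 253 ± 33.7 TPM (mean ± SD, n = 3 each), a ratio of 0.966. The highest and the lowest sum were both of control libraries, and the knockouts lay between them. Without Lyz2 and Pf4, the other 13 genes summed to 172, 185 and 210 TPM in knockouts and to 226, 220 and 175 TPM in controls. Their ratio was 0.913, and knockout 1 was then the lowest library. Of the 15 log2 differences, 4 were positive and 11 negative.

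Csf1r (ENSMUSG00000024621), the receptor on which tissue macrophages depend for survival, was at 14.9, 12.1 and 14.7 TPM in knockouts and at 14.7, 17.6 and 16.1 TPM in controls. The groups overlapped by a narrow margin, knockout 1 lying just above control 1, and the log2 difference was -0.20 (SE 0.12), with a limma adjusted p of 0.607. Cx3cr1 (ENSMUSG00000052336), the fractalkine receptor of early tissue macrophages, was at 9.58, 9.25 and 8.50 TPM in knockouts and at 10.7, 10.02 and 7.82 TPM in controls. Control libraries were again at both ends, and the log2 difference was -0.05 (SE 0.15). Adgre1, which encodes F4/80, was at 3.69, 2.98 and 3.98 TPM in knockouts and at 4.19, 5.91 and 3.04 TPM in controls, with control 2 highest. Cd68, a lysosomal glycoprotein gene, was at 21.7 to 25.9 TPM in knockouts and 20.9 to 23.9 TPM in controls, with a log2 difference of 0.04 (SE 0.10).

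The genes of the 3 chains of complement C1q, which coats dying cells for uptake, ran in the same order over the controls, with control 1 highest and control 3 lowest. C1qb (ENSMUSG00000036905) was at 30.0, 38.3 and 40.2 TPM in knockouts and at 52.4, 46.7 and 32.8 TPM in controls. Control 1 was the highest library for all of C1qa, C1qb and C1qc, and the groups overlapped for each, with log2 differences of -0.18, -0.26 and -0.08. C1qc was at 0.567, 0.599 and 0.582 of the C1qb level in knockouts and at 0.502, 0.515 and 0.524 of it in controls. These 3 knockout ratios lay above the 3 control ratios, a pattern singled out after its values were seen and not tested. C1qa over C1qb ranged from 0.640 to 0.921 in knockouts and from 0.737 to 0.776 in controls.

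Among receptors for uptake and for pathogens, Mertk, a receptor that binds dying cells through Gas6 and Pros1, was at 24.4, 26.8 and 32.5 TPM in knockouts and at 23.9, 28.8 and 28.4 TPM in controls. Mrc1, the mannose receptor, was at 11.01, 10.2 and 16.8 TPM in knockouts and at 13.8, 13.6 and 10.4 TPM in controls, with knockout 3 highest and a log2 difference of -0.01. The groups of both genes overlapped. Fcgr1, a high-affinity receptor for antibodies, Cd14, a co-receptor for lipopolysaccharide, and Trem2, a lipid-sensing receptor, were low, at 1.63 to 5.10 TPM over the 6 libraries, and had log2 differences of -0.23, -0.19 and 0.11.

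Aif1 (ENSMUSG00000024397), which encodes the actin-binding protein Iba1 of macrophages and microglia, was at 4.12, 4.04 and 3.74 TPM in knockouts and at 6.51, 6.401 and 4.72 TPM in controls. Every knockout lay below every control. The means were 3.97 ± 0.199 against 5.88 ± 1.00 TPM (SD, n = 3 each), with a log2 difference of -0.46 (SE 0.17) that did not pass limma's test (adjusted p = 0.351, and 0.304 to 0.728 over the fits that left out 1 library).

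Pf4 (ENSMUSG00000029373), which encodes platelet factor 4, a chemokine of megakaryocytes and platelets that yolk sac-derived macrophages also express, stood apart from the rest of its class. It was at 37.4, 48.2 and 45.0 TPM in knockouts and at 28.2, 23.2 and 31.5 TPM in controls. Every knockout lay above every control, at means of 43.6 ± 5.57 against 27.6 ± 4.18 TPM (SD, n = 3 each) and a ratio of 1.58. The log2 difference of 0.64 (SE 0.13) had the smallest p of the listed genes and did not pass limma's test (adjusted p = 0.112). It kept its sign in every alternative run, with adjusted p from 0.111 to 0.358. In the authors' deposited table Pf4 passes (adjusted p = 0.036), at a log2 fold change of 0.67.

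Because Pf4 is also a platelet gene, the megakaryocyte and platelet list is set beside it. Of 12 genes listed, 11 had a row, and they summed to 47.9, 47.9 and 65.9 TPM in knockouts and to 40.2, 48.0 and 50.9 TPM in controls. None of 9 tested passed limma's test (2 at an unadjusted p under 0.05, background 11.3%, none in the authors' deposited table). Gp9, a subunit of the platelet receptor for von Willebrand factor, was at 7.65, 4.87 and 5.69 TPM in knockouts and at 3.27, 3.30 and 4.81 TPM in controls. Treml1, a receptor of platelet granules, was at 3.41, 4.33 and 5.79 TPM in knockouts and at 3.23, 1.21 and 2.13 TPM in controls. The groups of these 2 genes did not overlap, with knockouts above (background 16.6% for no overlap, 8.14% with knockouts above). For Gp9 the margin was narrow, 4.87 TPM in knockout 2 against 4.81 TPM in control 3. Ppbp, a second platelet chemokine, and Itga2b, the platelet integrin CD41, had overlapping groups and log2 differences of 0.24 and 0.07. Itgb3, the integrin partner of Itga2b, was at 5.25, 4.48 and 6.21 TPM in knockouts and at 4.77, 6.97 and 7.22 TPM in controls, a log2 difference of -0.21. Over the 9 tested genes, 5 differences were positive and 4 negative. The part of platelet RNA in the Pf4 values was not tested.

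**Figure D2:**
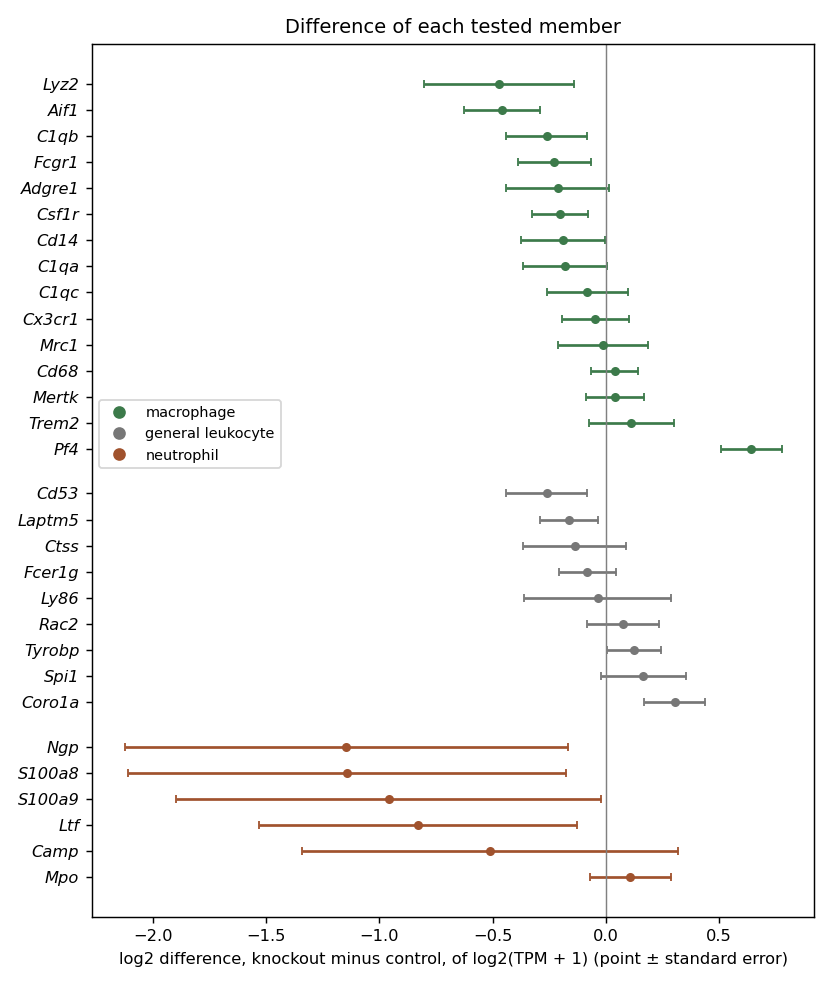
Log2 difference, knockout minus control, on log2(TPM + 1) for the 30 tested genes, with points for estimates and bars for limma's standard errors, coloured by class. Pf4, at 0.64, lies far to the right of the other macrophage genes, and the bars of S100a8, S100a9, Ngp, Camp and Ltf are the widest.

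The general leukocyte genes had nearly equal summed levels, 102, 107 and 105 TPM in knockouts and 118, 103 and 89.6 TPM in controls (ratio 1.01). The control sums spread more widely than the knockout sums. Spi1, which encodes the myeloid factor PU.1, was at 6.21, 6.89 and 4.25 TPM in knockouts and at 4.65, 4.99 and 5.27 TPM in controls, with knockouts at both ends. Tyrobp and Fcer1g, adaptors that signal for Trem2 and for Fc receptors, were at 17.2 to 23.9 TPM over the 6 libraries, with log2 differences of 0.12 and -0.08. Ptprc, which encodes the pan-leukocyte antigen CD45, was at 0.582, 0.663 and 0.769 TPM in knockouts and at 0.909, 0.754 and 0.626 TPM in controls.

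Coro1a, an actin regulator of leukocytes, had the largest log2 difference of this class in size, 0.30 (SE 0.13; limma adjusted p = 0.453). It was at 18.8, 17.2 and 20.9 TPM in knockouts and at 17.4, 15.6 and 12.8 TPM in controls, so knockout 2 lay below control 1 and the groups overlapped. Ctss, a lysosomal protease of antigen-presenting cells, was at 13.6, 17.2 and 14.1 TPM in knockouts and at 24.3, 14.98 and 12.2 TPM in controls, with control 1 highest. The lysosomal membrane gene Laptm5 and the tetraspanin gene Cd53 had log2 differences of -0.16 and -0.26. Rac2, a GTPase of the leukocyte oxidase, had 0.07. Ly86, a partner of a Toll-like receptor relative, ran from 0.984 to 2.17 TPM in knockouts and from 0.679 to 2.67 TPM in controls, a spread wider than its log2 difference of -0.04 (SE 0.32).

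**Figure D3:**
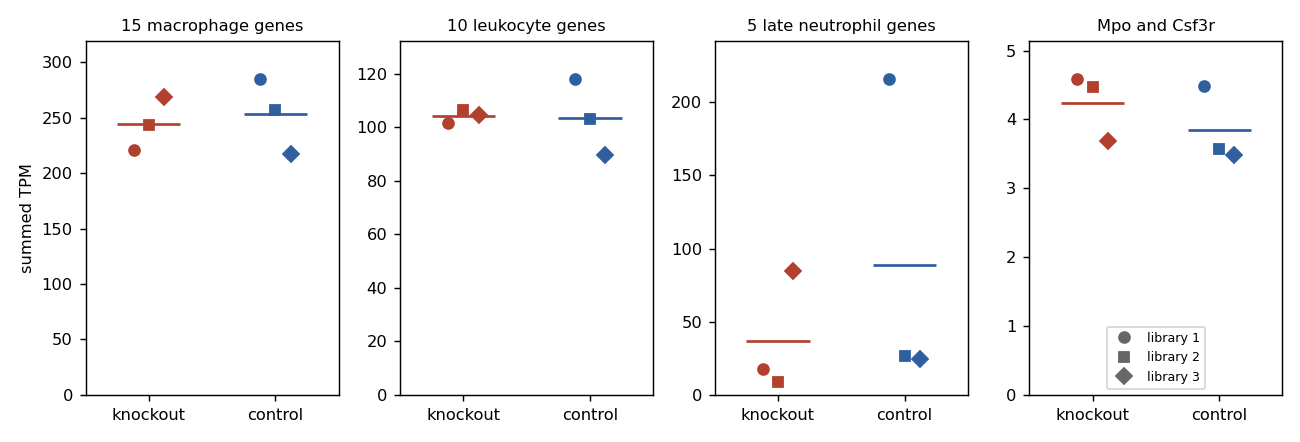
Summed TPM of each class on a linear axis from 0, with 1 symbol per library, a line at the group mean, and knockouts left of controls. The macrophage sums lie between 218 and 285 TPM and the general leukocyte sums between 89.6 and 118 TPM, whereas the 5 late neutrophil genes run from 8.53 to 216 TPM.

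Among the neutrophil genes, the secondary granule genes Ngp, Camp and Ltf and the calprotectin genes S100a8 and S100a9, called late genes for short, spanned a wide range within both groups, whereas Mpo and Csf3r lay close together. The 5 late genes summed to 17.9, 8.53 and 84.4 TPM in knockouts and to 216, 26.3 and 24.6 TPM in controls, so that control 1 was highest, knockout 3 next, and knockout 2 lowest. The highest sum was 25.3 times the lowest, against 1.31 times for the macrophage genes and 1.31 times for Mpo and Csf3r together. For all 7 neutrophil genes summed it was 16.95 times. This split of the 7 genes was not one of the planned classes, and the contrast between its parts was not tested.

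S100a8 (ENSMUSG00000056054) was at 6.27, 1.37 and 24.6 TPM in knockouts and at 61.3, 8.72 and 6.82 TPM in controls, from 40, 8 and 143 reads in knockouts and 414, 50 and 38 reads in controls. S100a9 (ENSMUSG00000056071) was at 8.75, 4.56 and 44.4 TPM in knockouts and at 99.2, 9.74 and 15.8 TPM in controls. Control 1 and knockout 3 held the 2 highest values of each gene, so the groups overlapped. The log2 differences were -1.14 (SE 0.97; limma adjusted p = 0.723) for S100a8 and -0.96 (SE 0.94; limma adjusted p = 0.770) for S100a9. Without control 1 they were -0.20 and 0.0089, and without knockout 3 they were -2.02 and -1.83.

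Ngp (ENSMUSG00000032484), which encodes a secondary granule protein of the cathelicidin family, was at 0.712, 0.390 and 7.23 TPM in knockouts and at 24.6, 3.57 and 0.816 TPM in controls. Camp (ENSMUSG00000038357), the cathelicidin antimicrobial peptide gene, was at 2.01, 2.20 and 5.51 TPM in knockouts and at 23.7, 3.03 and 0.822 TPM in controls. Ltf (ENSMUSG00000032496), the lactoferrin gene, was at 0.126 and 2.70 TPM in knockouts 1 and 3, was listed at 0 in knockout 2, and was at 6.85, 1.19 and 0.361 TPM in controls. In each of the 3 genes control 1 was highest and knockout 3 next. These values rest on few reads outside those libraries: 4, 2 and 37 in knockouts and 146, 18 and 4 in controls for Ngp. The log2 differences were -1.15 (SE 0.98) for Ngp, -0.51 (SE 0.83) for Camp and -0.83 (SE 0.70) for Ltf, with limma adjusted p of 0.726, 0.873 and 0.723. Camp changed sign without control 1, to 0.55, and was at 0.19 without control 1 and knockout 3 together, a setting chosen after seeing the data. Ngp and Ltf fell below 1 TPM in too many libraries to be fitted without control 1. The fit without control 1 called 0.162% of all genes and none of those listed.

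Mpo (ENSMUSG00000009350), the myeloperoxidase gene of the primary granules, was at 3.62, 3.44 and 2.82 TPM in knockouts and at 3.48, 2.83 and 2.66 TPM in controls. Its libraries lay close together, and the log2 difference was 0.11 (SE 0.18; limma adjusted p = 0.877). Csf3r, the receptor of the growth factor that drives neutrophil formation, was at 0.964, 1.02 and 0.860 TPM in knockouts and at 0.997, 0.738 and 0.829 TPM in controls. Prtn3, another primary granule enzyme outside the list, was at 6.78, 8.12 and 8.27 TPM in knockouts and at 9.67, 6.08 and 7.99 TPM in controls. S100a8 was at 1.73, 0.399 and 8.71 times the Mpo level in knockouts and at 17.6, 3.08 and 2.57 times it in controls.

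**Figure D4:**
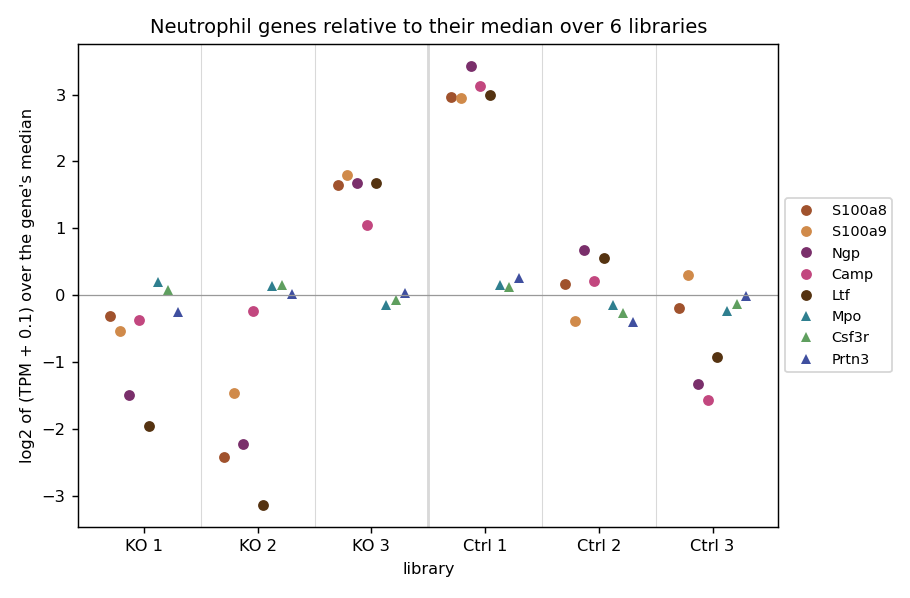
Log2 of TPM plus 0.1 over the gene's median of the 6 libraries for the 7 neutrophil genes and Prtn3, with knockouts left of controls. The circles of the late genes lie together near 3 in control 1 and above 1 in knockout 3, while the triangles of Mpo, Csf3r and Prtn3 stay near 0 in every library.

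The ratio of the group means of the 5 late genes therefore depended on single libraries. It was 0.416 over all libraries, 1.45 without control 1, 0.148 without knockout 3 and 0.519 without both. A library was taken to stand apart for a gene when its TPM was over 2 times the highest, or under 0.5 of the lowest, of the other 5, at a mean of at least 1 TPM. By this rule 6 of 30 listed genes had a high library (background 1.25% of genes), and in all 6 it was control 1. Camp was 4.31 times, Ngp 3.398, Ltf 2.54, S100a8 2.49 and S100a9 2.24 times the next library. The sixth was Lyz2, the lysozyme gene of macrophages and neutrophils, at 11.7, 9.59 and 14.2 TPM in knockouts and at 30.7, 12.97 and 11.3 TPM in controls. Its control 1 value was 2.17 times the next, and its log2 difference of -0.47 (SE 0.33; limma adjusted p = 0.663) was -0.05 without that library.

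A low library stood apart for 3 genes (background 4.22%): Ltf and S100a8 in knockout 2, S100a8 at 0.219 of the next lowest, and Camp in control 3, at 0.409 of the next lowest. The next lowest was knockout 1 for each. These low values rest on few reads, 0 against 2 for Ltf, 8 against 40 for S100a8 and 5 against 14 for Camp. Control 1 was also the highest library for 15 of the 30 genes, 6 of macrophages, 4 of leukocytes in general and 5 of neutrophils, where 10.1% of all genes had it highest. It was more than 2-fold above the other 5 for 0.189% of all genes. Knockout 2 was lowest for 12 of the 30, where 22.3% of all genes had it lowest, and control 3 for 8, where 13.8% of all genes did. By summed level control 1 was the lowest of the 6 libraries for platelet genes, the second highest for erythroid genes, and the highest for macrophage and endothelial genes, at 1.31 and 1.27 times the lowest. What sets control 1 apart was not tested.

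The ligands and partners of the listed receptors were compared next. Of 14 listed, 11 had a row and were tested, and none passed limma's test (4 at an unadjusted p under 0.05, background 11.3%, and 5 without overlap, background 16.6%). The authors' deposited table has Gas6 higher and Pros1 and Axl lower (background 3.55%). Csf1, the main ligand of Csf1r, was at 14.1, 15.7 and 17.1 TPM in knockouts and at 17.9, 19.5 and 18.6 TPM in controls, without overlap, and its log2 difference was -0.24 (limma adjusted p = 0.447). The groups of Il34, the other Csf1r ligand, and of Cx3cl1, the ligand of Cx3cr1, overlapped, at 2.00 to 2.93 and 3.46 to 5.27 TPM in knockouts and 2.16 to 3.44 and 4.19 to 5.77 TPM in controls.

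The bridging ligands that link dying cells to Mertk and its relatives lay on opposite sides of the controls. Gas6 was at 108, 149 and 136 TPM in knockouts and at 98.1, 103 and 107 TPM in controls, a log2 difference of 0.34 (limma adjusted p = 0.292). Pros1, which encodes protein S, was at 25.7, 26.1 and 34.7 TPM in knockouts and at 40.0, 40.8 and 38.3 TPM in controls, a log2 difference of -0.46 (limma adjusted p = 0.187). Axl, a receptor related to Mertk that prefers Gas6, was at 167, 174 and 199 TPM in knockouts and at 219, 216 and 230 TPM in controls, a log2 difference of -0.30 (limma adjusted p = 0.172). None of these 3 overlapped between groups. Without knockout 3, Pros1 and Axl passed, at limma adjusted p of 0.0225 and 0.0371, in a fit that called 242 genes (1.4%). In the other fits without 1 library neither passed, at limma adjusted p of 0.346 to 0.524 for Pros1 and 0.285 to 0.458 for Axl. With limma-voom they were at 0.0756 and 0.0851. Tyro3, the third receptor of that family, was at 34.3 to 42.0 TPM in knockouts and 40.1 to 47.2 TPM in controls and overlapped.

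Hmgb1, a nuclear protein gene whose released product acts on the receptor Tlr4, was at 589, 613 and 591 TPM in knockouts and at 533, 541 and 528 TPM in controls, without overlap, and its log2 difference was 0.16 (limma adjusted p = 0.286). Tlr4 and its partner Ly96, which work with Cd14, and the Trem2 ligand Apoe had overlapping groups and log2 differences of -0.08, -0.02 and -0.01.

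**Figure D5:**
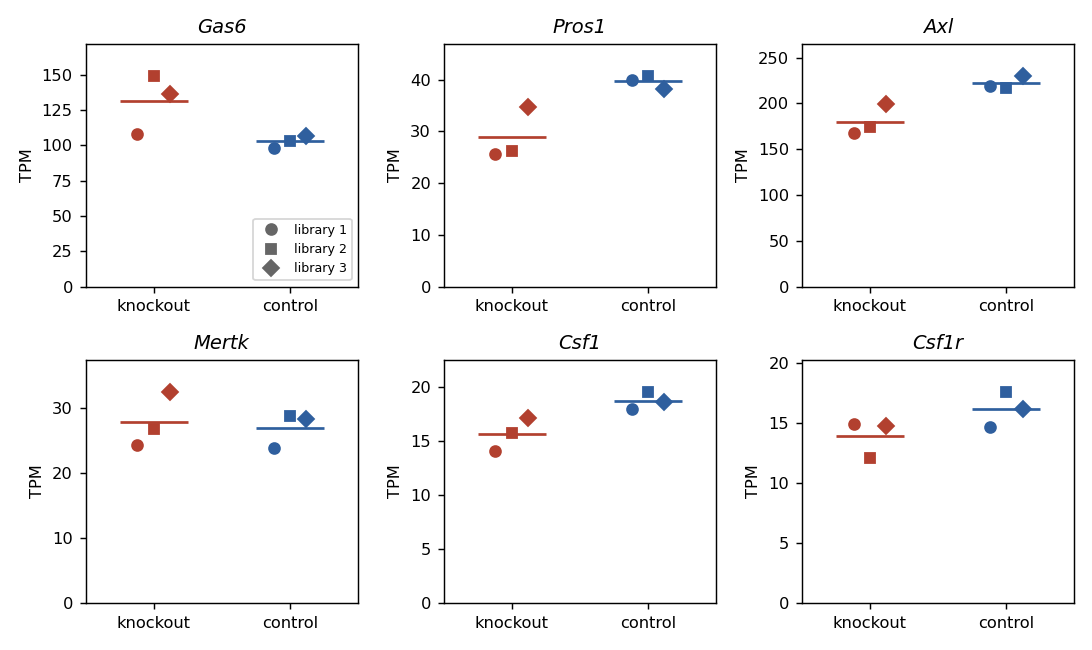
TPM of Gas6, Pros1, Axl, Mertk, Csf1 and Csf1r on linear axes from 0, with 1 symbol per library, a line at the group mean, and knockouts left of controls. All knockouts lie above every control for Gas6 and below every control for Pros1, Axl and Csf1, while the groups of Mertk and Csf1r overlap.

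Further macrophage and leukocyte genes outside the list were read the same way. Of 28 other macrophage genes tested, none passed (4 at an unadjusted p under 0.05, background 11.3%, none in the authors' deposited table). Their median log2 difference was -0.01. Among those of highest level, Dab2, an endocytic adaptor, had -0.02, Cyba, a subunit of the phagocyte oxidase, -0.14, and Lgmn, a lysosomal protease, -0.08. These 3 genes were at 75.25 to 130.5 TPM over the 6 libraries, against 12.1 to 17.6 TPM for Csf1r. The part of macrophage RNA in their values was not tested. Tmem119, known from microglia and also from bone-forming cells, was at 67.7, 70.9 and 62.9 TPM in knockouts and at 55.7, 60.2 and 61.9 TPM in controls, without overlap, a log2 difference of 0.18 (limma adjusted p = 0.435). Of 19 other leukocyte signalling genes tested, none passed limma (1 at an unadjusted p under 0.05), and 1, Runx1, is lower in the authors' deposited table, with a log2 fold change of -0.58. Runx1, a hematopoietic transcription factor gene also active outside blood, was at 6.58, 6.30 and 6.67 TPM in knockouts and at 8.86, 10.3 and 10.3 TPM in controls, without overlap. Its log2 difference was -0.52 (limma adjusted p = 0.169, and 0.014 with limma-voom on the recovered reads, background 1.53%). It passed in none of the fits without 1 library, at limma adjusted p of 0.12 to 0.519.

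Of 16 other neutrophil genes listed, 6 had a row and 4 were tested. None passed limma (1 at an unadjusted p under 0.05, background 11.3%), and 1, Mmp9, is lower in the authors' deposited table (background 3.55%). Mmp9, a gelatinase of neutrophil tertiary granules that other cells also make, was at 1.04, 1.14 and 3.61 TPM in knockouts and at 5.78, 4.86 and 3.73 TPM in controls. Knockout 3 nearly reached control 3, and the log2 difference of -1.07 (limma adjusted p = 0.256) passed without knockout 3, at 0.0361. That fit called 1.4% of all genes, and the other fits without 1 library gave Mmp9 limma adjusted p of 0.422 to 0.572. Lcn2, a secondary granule gene, was at 0.414, 0.0908 and 2.37 TPM in knockouts and at 3.21, 0.923 and 0.0950 TPM in controls, with control 1 highest and knockout 3 next. These values rest on 5, 1 and 26 reads in knockouts and 41, 10 and 1 in controls. Lcn2 was not tested and was also picked after its values were seen, so its pattern supports nothing. Cebpe, a transcription factor gene needed for secondary granules, was at 1.31, 2.02 and 1.64 TPM in knockouts and at 1.82, 1.17 and 0.301 TPM in controls. Its highest library was knockout 2, and its log2 difference was 0.40 (limma adjusted p = 0.689).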

How the data were processed

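RNA was extracted from whole mesonephroi with a PicoPure kit, poly(A)-selected and sequenced as paired reads, per the labels' protocols. The authors deposited TPM per library, per the file headers, with their own log2 fold change, p-value and adjusted p-value, which is empty for 1175 genes. The submitters' processing notes name DESeq2 and GRCm39; not given in the sources used here are the aligner, the counting tool and its strand setting.

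The values were transformed to log2(TPM + 1), and genes that reached 1 TPM in 3 or more libraries were tested with limma 3.58.1 (R 4.3.3), using a mean-variance trend and a term for genotype alone. Standard errors are limma's moderated ones, and p-values were adjusted by Benjamini and Hochberg over 17577 genes, at a threshold of 0.05. A difference on this scale understates the change of low genes.

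The ratios of the deposited TPM between libraries gave whole reads for all 20033 genes within 0.001 reads. Any multiple that a gene's 6 libraries share cannot be seen in ratios, so these reads are lower bounds. Replicates differed by more than counting noise (chi-square per degree of freedom from 7.53 to 22.7). The fit was tested on simulated data. The members, their classes and the other gene lists were chosen with earlier results of these data known. All members were named. From each other list, genes past the test were named, or otherwise genes among the 4 of highest level (erythroid genes and some others are given by list only), and all ligands and partners. Runx1, Treml1, C1s1, Stab2 and the genes given as single-library values under other observations were chosen after their values were seen. Lcn2 is among the 4 of highest level of its list and was also picked after its values were seen. Class sums, ratios between genes and single-library values carry no test. Alternatives were other scalings, pseudocounts and filters, removal of erythroid genes, limma-voom, a replicate block and leaving out libraries.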

Additional observations from a re-analysis of the deposited data

How the results depend on the processing

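None of the listed genes was called in any alternative run. The number of genes called over all genes was 78, and 69 to 82 under other scalings, filters and pseudocounts or without erythroid genes. It was 269 with limma-voom on the recovered reads and 13 to 242 when 1 library was left out, the highest without knockout 3. The cause was not tested. With the replicate number as a block it was 17. Same-numbered libraries did not deviate together (correlations of -0.064, 0.050 and -0.051), and differently numbered ones ran from -0.058 to 0.113. Litters are not given, so whether the numbers pair the samples cannot be told from these values. The ratio of summed TPM ranged over the fits leaving out 1 library from 0.903 to 1.03 for macrophage genes, 0.943 to 1.08 for leukocyte genes, 0.191 to 1.42 for neutrophil genes and 0.148 to 1.45 for the 5 late genes, with both highest neutrophil values without control 1. The 6 genes with a high library were 6 also at 1.5-fold and at a mean of 0.1 TPM. Genes with a low library rose from 3 to 5 at 1.5-fold (1613 of 17479 over all genes). At a mean of 0.1 TPM they were 3 (1494 of 20020 over all genes). With limma-voom, log2 differences near 0 changed sign to 0.0025 for Mrc1, 0.071 for Ly86, 0.0084 for Dab2 and 0.0073 for Apoe. Leaving out 1 library, or control 1 and knockout 3 together (chosen after seeing the data), changed signs within these ranges: Cx3cr1 -0.17 to 0.079, C1qc -0.26 to 0.060, Mrc1 -0.22 to 0.12, Cd68 -0.037 to 0.12, Mertk -0.16 to 0.13, Ctss -0.34 to 0.17, Rac2 -0.038 to 0.20, Ly86 -0.51 to 0.23, S100a9 -1.83 to 0.0089, Camp -1.33 to 0.55. Outside the listed genes they were Apoe -0.14 to 0.12, Arhgdib -0.055 to 0.19, Calr -0.052 to 0.057, Dab2 -0.095 to 0.040, Emcn -0.12 to 0.083, Hbb-y -0.045 to 0.16, Itga2b -0.042 to 0.16, Lcp1 -0.019 to 0.079, Ly96 -0.24 to 0.35, Ppbp -0.036 to 0.41, Prtn3 -0.17 to 0.12, Tlr4 -0.21 to 0.16. Without both libraries, Cx3cr1 was at 0.079, Mertk at -0.16, Ctss at 0.17 and Camp at 0.19. Ngp and Ltf fell under the filter in several of these fits and got no value there. Late neutrophil genes with under 10 reads in a library are limited by counting.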

Other observations

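Phagocytosis and complement genes outside the listed ones gave 0 of 9 tested genes past limma's test (3 at an unadjusted p under 0.05, background 11.3%), and 3, C1s1, Stab2 and Lrp1, are lower in the authors' deposited table (background 3.55%). The median log2 difference of the 9 was -0.05, with 4 genes positive and 5 negative. C1s1, a protease of the C1 complex, was at 9.62, 11.6 and 15.6 TPM in knockouts and at 26.5, 19.8 and 19.5 TPM in controls. Its log2 difference of -0.80 (limma adjusted p = 0.146) passed without knockout 3, at 0.0456. That fit called 1.4% of all genes, and the other fits without 1 library gave C1s1 limma adjusted p of 0.294 to 0.364. Stab2, a scavenger receptor of sinusoidal endothelium, was at 3.21, 3.33 and 3.22 TPM in knockouts and at 5.51, 5.70 and 6.23 TPM in controls. Its log2 difference was -0.68 (limma adjusted p = 0.124, and 0.010 with limma-voom, background 1.53%). It passed in none of the fits without 1 library, at limma adjusted p of 0.102 to 0.406. Lrp1, an endocytic receptor that takes up calreticulin-marked cells, was at 108, 97.3 and 100.3 TPM in knockouts and at 114, 131 and 155 TPM in controls (limma adjusted p = 0.233). None of the 3 genes overlapped between groups (background 16.6%). Calr, Mfge8 and Serping1, also among the genes of highest level in this list, had overlapping groups and log2 differences of 0.01, 0.06 and -0.20. All 12 endothelial genes had negative log2 differences, with none past limma's test (4 at an unadjusted p under 0.05, background 11.3%). Cdh5 and Kdr are lower in the authors' deposited table (background 3.55%). The 12 genes summed to 442 to 484 TPM in knockouts and 521 to 562 TPM in controls. The part of endothelial RNA in the Stab2 values was not tested.

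Of 3 mast cell and basophil genes tested, none passed limma's test (1 at an unadjusted p under 0.05, background 11.3%), with 1 difference positive and 2 negative. Cpa3, a granule carboxypeptidase also expressed in blood progenitors, was at 11.5, 6.20 and 8.81 TPM in knockouts and at 3.66, 1.596 and 4.76 TPM in controls, without overlap. Its log2 difference of 1.22 did not pass limma's test (adjusted p = 0.187), and it is higher in the authors' deposited table (log2 fold change 1.41, adjusted p = 0.0121). Hdc, the histamine-forming enzyme, and Kit, the stem cell factor receptor, had log2 differences of -0.39 and -0.10. Of the 2 monocyte genes tested, neither passed (1 at an unadjusted p under 0.05, background 11.3%, none in the authors' deposited table). The log2 differences were 0.30 for Plac8 and 0.22 for F13a1. Plac8 was at 86.6 to 147 TPM over the 6 libraries, whereas Ccr2 of the same list was at 0.295 to 0.989 TPM and was not tested. Which cells the Plac8 RNA came from was not tested. Of the 2 lymphoid genes tested, neither passed (1 at an unadjusted p under 0.05, background 11.3%, none in the authors' deposited table). Cd79a and Cd79b, both of the B cell receptor, had log2 differences of 0.25 and -0.55.

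Outside blood, 3 of 9 gonadal soma genes tested and 1 of 10 duct and tubule genes tested passed limma's test (background 0.444%). Over the 9 gonadal genes 8 differences were positive and 1 negative, and over the 10 duct and tubule genes 3 were positive and 7 negative. The gonadal genes Nr5a1, Gata4 and Lhx9 were higher in knockouts, by 1.62, 1.82 and 1.53 on the log2 scale (adjusted p from limma of 0.0281, 0.0354 and 0.0463). The duct gene Lhx1 was lower, at -1.32 (limma adjusted p = 0.0123). These calls depended on the libraries kept: over the fits without 1 library the adjusted p ran from 0.0103 to 0.139, 0.0056 to 0.160, 0.0544 to 0.184 and 0.0154 to 0.0763, and Lhx9 passed in none of them. In these fits Nr5a1 and Gata4 passed only without knockout 3 or control 1, and Lhx1 only without knockout 1 or knockout 3. Gata4 and Lhx9 also missed the threshold under both other scalings and with the replicate block, and Lhx9 under the other filters and pseudocounts.

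Genes picked after their values were seen are given as values by library and support nothing, since the choice fixed their pattern. Stfa2l1, a stefin of neutrophils, was at 0.519 and 4.56 TPM in knockouts 1 and 3, was listed at 0 in knockout 2, and was at 17.7, 2.31 and 0.595 TPM in controls. Olfm4, a secondary granule gene, was at 0.697, 0.241 and 2.74 TPM in knockouts and at 7.08, 1.76 and 1.85 TPM in controls. Stefins have near-identical copies, so reads may be shared among them. Knockout 3 also held the highest values of the fetal liver genes Alb, at 0.928, 1.22 and 27.9 TPM in knockouts and 0.263, 0.517 and 2.34 TPM in controls, and Afp, at 1.94, 1.13 and 38.1 TPM in knockouts and 2.08, 1.37 and 3.63 TPM in controls. Control 1 had no such level of either gene, and the source of these values was not tested.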
